A study of Mus musculus with 6 samples.

Results

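Cells that divide need a set of proteins to condense their chromosomes, build a spindle, hold the cycle until every chromosome is attached, and split the cytoplasm. The 39 genes described here encode such proteins: mitotic cyclins and their kinase, mitotic kinases, the spindle checkpoint, kinetochore and chromosomal passenger proteins, cytokinesis proteins, condensin, and Mki67, whose product Ki-67 is the usual marker of cycling cells. They were chosen by symbol for these roles, and all 39 were found among the 23473 RefSeq genes of the table and among the 12320 genes with a mean of at least 1 RPKM (reads per kilobase of gene model, scaled to a fixed library depth) that were tested. RNA came from tumor endothelial cells (TECs) of C57BL/6 mice labelled as 8 weeks old that carried tumors of Lewis lung carcinoma (LLC), a transplanted mouse lung cancer line. The 3 Ctrl mice were labelled wild type, and the 3 NICeCA mice carried Cdh5-CreERT and a floxed-stop Notch1 intracellular domain in Rosa26, so that tamoxifen switches on Notch signaling in cells that express Cdh5, a gene of endothelial cells. The labels and methods do not say whether the Ctrl mice carried Cre or received tamoxifen. TECs were captured from digested tumors on CD31 beads, so cells without Cdh5 that stayed with the beads kept the floxed stop. The comparison asks which genes of mitosis differ in level between CD31-captured cells of NICeCA and Ctrl tumors, called NICeCA and Ctrl TECs here. The libraries also held markers of other cell types, as given below, so a level need not be that of endothelial cells alone.

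These genes are switched on together late in the cell cycle. The B-MYB and MuvB proteins and then FoxM1 act on promoters that often hold a cell cycle homology region (CHR), bound by the MuvB subunit LIN54, and several CCAAT boxes, bound by NF-Y. In quiescent cells the DREAM complex uses the same CHR to keep these genes silent. In endothelial cells, Notch signaling is known for holding cells out of division during vessel growth. In bulk RNA, fewer dividing cells and less mRNA in each dividing cell cannot be told apart.

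Some facts of the whole series bear on what follows. The libraries held 27793301 to 30769916 reads on RefSeq genes, and each member had between 79 and 14778 reads in a library, and replicates of a group differed by more than counting error, with a chi-square per degree of freedom of at least 51.2 between any pair. Notch1 itself did not differ past the threshold (adjusted p = 0.713): it stood at 14.3, 8.19 and 13.8 RPKM in Ctrl replicates 1 to 3 and at 12.3, 13.6 and 12.6 RPKM in NICeCA replicates 1 to 3. Hey1, a Notch target, was higher in each NICeCA library (6.05, 10.6 and 9.91 RPKM) than in each Ctrl library (5.55, 2.69 and 2.78 RPKM), with Ctrl replicate 1 close to NICeCA replicate 1 (log2 fold change 1.10, adjusted p = 0.0412). Nrarp, another Notch target, missed the threshold (log2 fold change 1.05, adjusted p = 0.0519), and Hes1, also a Notch target, had means of 9.88 RPKM in Ctrl and 8.54 RPKM in NICeCA TECs (log2 fold change -0.16, adjusted p = 0.562). Ctrl replicate 2 stood apart for the 39 genes and for cell type markers, as described below, and the summaries of the gene lists that it moves are given with and without it.

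Promoter sequence is shown for the members in which NICeCA TECs had lower levels past the threshold and for which RefSeq gave a window, and for Cdc20, whose levels in the groups overlapped, because the same letters occur in both kinds. RefSeq windows (GRCm38.p6, 250 bases before to 50 after the start) were matched for 32 of the 39 members. Windows were searched on both strands for the CHR (TTTGAA or TTCGAA) and the CCAAT box (CCAAT). The E-box of MYC (CACGTG) and the RBPJ motif of Notch signaling (GTGGGAA) were searched for in the same way. The sequences run 5′ to 3′ along the gene from 200 bases before the start to the first 15 bases of the transcript, and capitals mark each CHR and CCAAT box in either orientation.
Mki67, chr7:135716365-135716579, minus strand: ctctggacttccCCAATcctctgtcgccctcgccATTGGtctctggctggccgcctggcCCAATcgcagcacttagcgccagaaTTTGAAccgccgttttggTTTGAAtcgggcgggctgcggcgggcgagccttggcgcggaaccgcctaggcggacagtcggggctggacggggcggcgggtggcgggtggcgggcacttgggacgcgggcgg
Cenpf, chr1:189688072-189688286, minus strand: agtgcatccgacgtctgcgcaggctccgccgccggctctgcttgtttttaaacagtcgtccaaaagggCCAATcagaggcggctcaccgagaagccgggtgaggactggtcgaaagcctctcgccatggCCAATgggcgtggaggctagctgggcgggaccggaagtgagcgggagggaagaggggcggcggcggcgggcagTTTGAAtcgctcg
Cdc25b, chr2:131186748-131186962, plus strand: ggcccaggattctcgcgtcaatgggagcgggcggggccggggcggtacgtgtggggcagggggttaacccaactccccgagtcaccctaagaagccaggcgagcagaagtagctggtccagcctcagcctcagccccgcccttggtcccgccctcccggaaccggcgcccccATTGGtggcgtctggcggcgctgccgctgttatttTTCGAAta
Ncapd2, chr6:125191572-125191786, minus strand: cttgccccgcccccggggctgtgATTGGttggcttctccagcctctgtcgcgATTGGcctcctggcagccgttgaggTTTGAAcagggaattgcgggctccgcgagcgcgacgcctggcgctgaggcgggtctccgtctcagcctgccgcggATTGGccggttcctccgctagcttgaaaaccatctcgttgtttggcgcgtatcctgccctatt
Cdc20, chr4:118437329-118437543, minus strand: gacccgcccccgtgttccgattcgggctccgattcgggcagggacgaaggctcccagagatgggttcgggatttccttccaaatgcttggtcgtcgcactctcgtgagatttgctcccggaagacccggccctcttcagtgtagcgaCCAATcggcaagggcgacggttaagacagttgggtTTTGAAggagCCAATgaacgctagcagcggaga

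The CHR nearest the start lay at position -98 in Mki67, 2 in Cenpf, 7 in Cdc25b, -123 in Ncapd2 and -18 in Cdc20, where 0 is the first transcribed base. A CHR was found in 25 of the 32 members (78.1%) and in 21.7% of all 27025 genes with a window. A CCAAT box was found in 25 of 32 (78.1%) against 41.1% of all genes, and both motifs together in 23 members (71.9%) against 9.65%. Birc5, Mad2l1, Nuf2, Nusap1 and Pttg1 held neither in the window. The E-box was found in Ttk and Anln (6.25% of members, 8.09% of all genes), and the RBPJ motif in Prc1 alone (3.13% of members, 7.25% of all genes). Among the 8944 tested genes with a window, 16.3% held a CHR, 42.6% a CCAAT box and 7.94% both. In those genes the E-box was found in 11.8% and the RBPJ motif in 7.11%. Both CHR and CCAAT were present in 4 of the 4 members with a window that were lower past the threshold and in 19 of the 28 that did not pass it. The median log2 fold change was -0.31 over the 23 members with both motifs and -0.17 over the 9 without. A match is a string of letters and not a shown binding site.

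**Figure D1:**
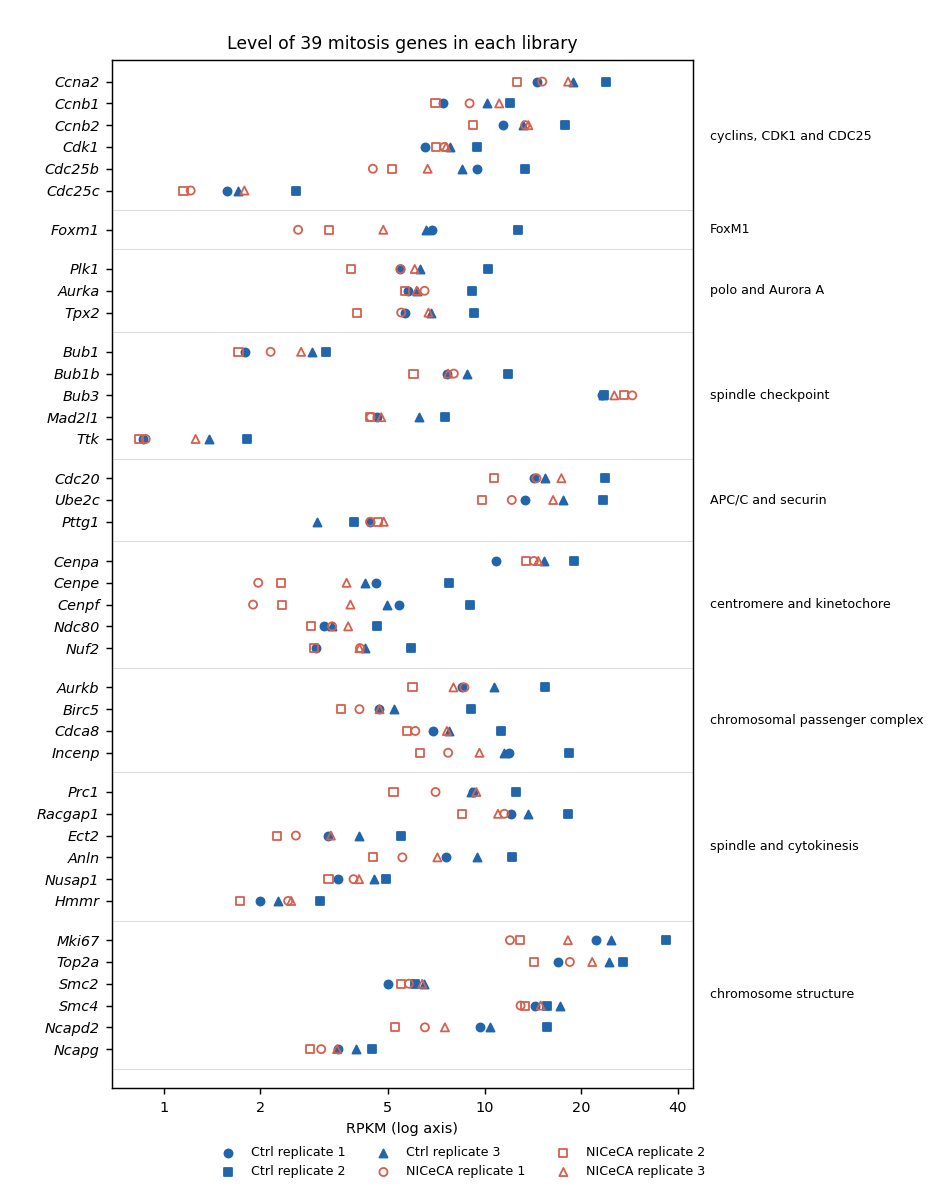
Level of each of the 39 genes in each of the 6 libraries, in RPKM on a log axis, ordered by role. Filled blue symbols are the 3 Ctrl mice and open red symbols the 3 NICeCA mice. The filled square, Ctrl replicate 2, is the rightmost symbol in 35 of the 39 genes.

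Of the 39 genes, 5 were lower in NICeCA than in Ctrl TECs past the threshold: Foxm1, Cenpf, Mki67, Cdc25b and Ncapd2 (limma, adjusted p under 0.05). Their NICeCA means were between 41.1% and 54.1% of their Ctrl means. Those 5 are 12.8% of the members, and 7.68% of all tested genes were lower by the same rule. None of the 39 was higher, against 5.88% of all tested genes. The log2 fold change, taken on log2(RPKM + 1) and negative where NICeCA was lower, was below 0 for 36 of 39 (92.3%), where 55.3% of all tested genes were below 0. The median over the members was -0.31 and over all tested genes -0.05. Pttg1, Bub3 and Smc2 were the members above 0.

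At an unadjusted p under 0.05, 11 members (28.2%) were lower, beside 21.1% of all tested genes. The groups did not overlap, with each NICeCA library below each Ctrl library, in 10 members (25.6%), beside 24.4% of all tested genes, so this share lay near the background. They did not overlap in the other direction in Bub3 alone (2.56%), beside 16.5% of all. For 28 members the 95% interval of the log2 fold change included 0.

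**Figure D2:**
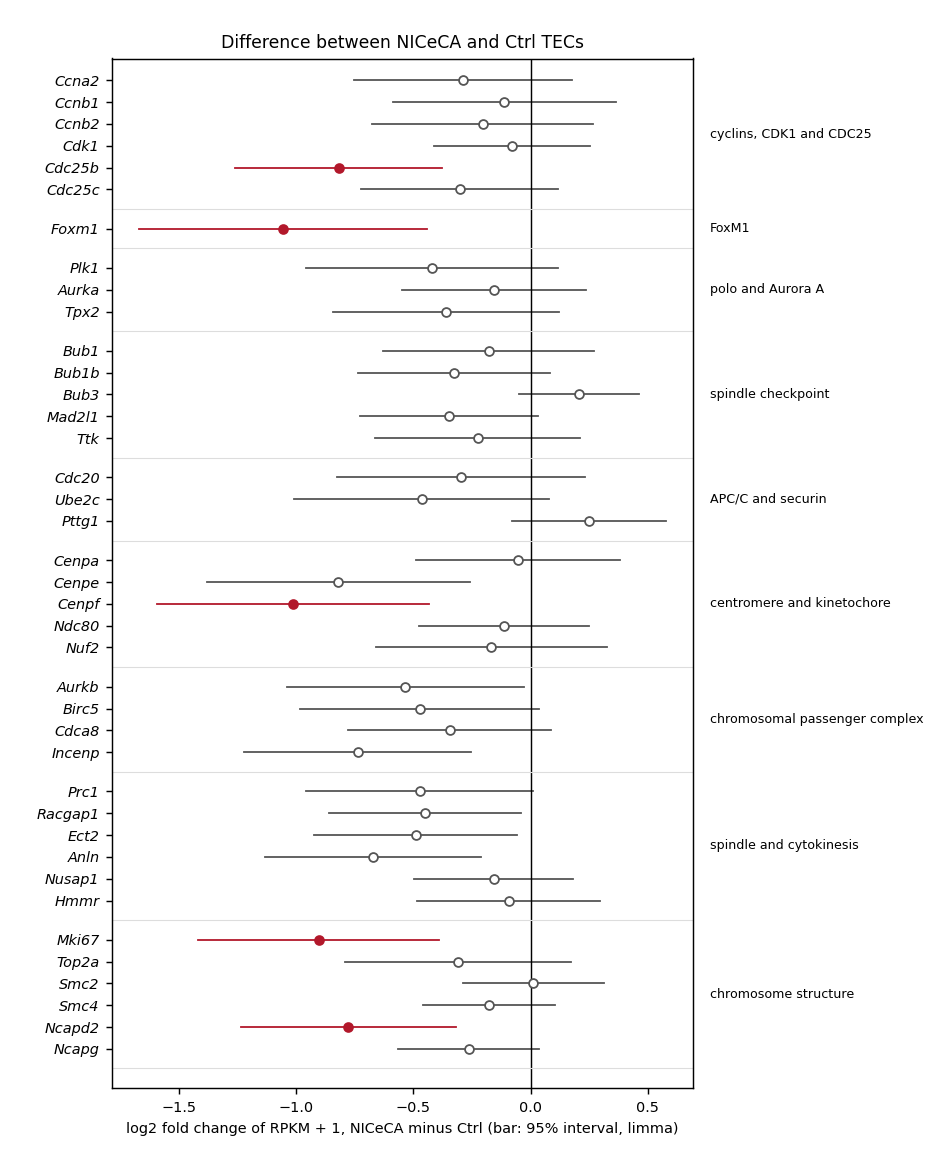
Log2 fold change of RPKM + 1 (NICeCA minus Ctrl, horizontal axis) for each of the 39 genes with its 95% interval from limma. Filled red points are the 5 genes with an adjusted p under 0.05, and they lie between -1.06 and -0.78; open points did not pass the test.

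Foxm1, the transcription factor that drives genes of G2 and mitosis, had the most negative log2 fold change. It measured 6.84, 12.8 and 6.57 RPKM in Ctrl TECs (replicates 1, 2 and 3, the order kept throughout) and 2.62, 3.28 and 4.84 RPKM in NICeCA TECs. Ctrl replicate 2 was well above the other Ctrl libraries, and the highest NICeCA library was still below the lowest Ctrl library. The means were 8.72 ± 3.50 and 3.58 ± 1.14 RPKM (SD, n = 3), and the log2 fold change was -1.06 (SE 0.27, adjusted p = 0.0423). Another gene, 4933413G19Rik, overlaps Foxm1 on the same strand, with means of 0.799 and 0.302 RPKM.

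Cyclins A2, B1 and B2 activate Cdk1 for entry into mitosis, and the phosphatases Cdc25b and Cdc25c remove the phosphates that hold Cdk1 inactive. Within these 6 genes, Cdc25b was the only member past the threshold. Cdc25b stood at 9.44, 13.3 and 8.50 RPKM in Ctrl and at 4.49, 5.16 and 6.65 RPKM in NICeCA TECs. The groups did not overlap, and the NICeCA mean was 52.1% of the Ctrl mean (log2 fold change -0.82, SE 0.19, adjusted p = 0.0373). Cdk1 itself measured 6.50, 9.47 and 7.83 RPKM in Ctrl and 7.49, 7.05 and 7.59 RPKM in NICeCA TECs. Here Ctrl replicate 1 was the lowest of all libraries and the NICeCA libraries lay inside the Ctrl range. Its log2 fold change was -0.08, with an interval from -0.41 to 0.25 (adjusted p = 0.718). Ccnb1 likewise overlapped, at 7.44, 12.0 and 10.2 RPKM in Ctrl and 8.98, 7.03 and 11.1 RPKM in NICeCA TECs. Ccna2, Ccnb2 and Cdc25c, with log2 fold changes of -0.29, -0.21 and -0.30, did not pass the test either.

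Plk1 and Aurka are the kinases of spindle poles and mitotic entry, and Tpx2 activates Aurka on the spindle. Plk1 measured 5.44, 10.2 and 6.31 RPKM in Ctrl and 5.47, 3.83 and 6.06 RPKM in NICeCA TECs. Only Ctrl replicate 2 and NICeCA replicate 2 departed from a common level near those of the other libraries. None of the 3 genes passed the test, with log2 fold changes of -0.42 for Plk1 (adjusted p = 0.231), -0.36 for Tpx2 and -0.16 for Aurka.

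The spindle checkpoint holds anaphase until all kinetochores are attached: Ttk recruits Bub1, Bub1b and Bub3 to unattached kinetochores, where Mad2l1 is turned into the form that inhibits Cdc20. None of these 5 genes passed the test, and their adjusted p lay between 0.168 and 0.538. Bub1 measured 1.79, 3.20 and 2.90 RPKM in Ctrl and 2.15, 1.71 and 2.68 RPKM in NICeCA TECs, and its groups overlapped. Bub1b, Mad2l1 and Ttk had log2 fold changes of -0.33, -0.35 and -0.23. Bub3 differed in sign from its partners: it stood at 23.2, 23.6 and 23.3 RPKM in Ctrl and at 28.9, 27.1 and 25.4 RPKM in NICeCA TECs. Bub3 was the member with the highest mean level, the tightest Ctrl libraries and no overlap between groups, yet it did not pass the test (log2 fold change 0.20, interval -0.05 to 0.46, adjusted p = 0.222).

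Once the checkpoint is satisfied, Cdc20 activates the anaphase-promoting complex (APC/C), Ube2c feeds it ubiquitin, and securin, the product of Pttg1, is destroyed to free separase. Cdc20 measured 14.3, 23.7 and 15.5 RPKM in Ctrl and 14.5, 10.7 and 17.4 RPKM in NICeCA TECs. The 2 groups overlapped broadly, and the log2 fold change of -0.30 did not pass (adjusted p = 0.379). Ube2c, at -0.46, did not pass either. Pttg1 had the highest log2 fold change of the 39, at 4.41, 3.93 and 2.99 RPKM in Ctrl and 4.40, 4.66 and 4.85 RPKM in NICeCA TECs. Its Ctrl replicate 2 was not the highest library, in contrast to Cdc20, and the log2 fold change of 0.25 had an interval from -0.08 to 0.58 (adjusted p = 0.243).

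At the centromere, Cenpa replaces histone H3, Ndc80 and Nuf2 form part of the arm that grips microtubules, Cenpe is a kinesin motor that moves chromosomes to the spindle equator, and Cenpf is a very large protein of the outer kinetochore. Cenpf measured 5.40, 9.01 and 4.98 RPKM in Ctrl and 1.90, 2.34 and 3.82 RPKM in NICeCA TECs. The groups did not overlap, and the NICeCA mean was 41.6% of the Ctrl mean (log2 fold change -1.01, SE 0.25, adjusted p = 0.0413). Cenpe had the same order of libraries, at 4.60, 7.72 and 4.25 RPKM against 1.97, 2.33 and 3.72 RPKM. Its log2 fold change of -0.82 missed the threshold (SE 0.24, adjusted p = 0.0586). The Ndc80 complex did not share this: Ndc80 measured 3.15, 4.62 and 3.36 RPKM in Ctrl and 3.35, 2.87 and 3.76 RPKM in NICeCA TECs, with overlapping groups. Log2 fold changes were -0.11 for Ndc80, -0.17 for Nuf2 and -0.05 for Cenpa, and the intervals reached down to -0.48, -0.66 and -0.49.

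The chromosomal passenger complex, in which Incenp, Birc5 (survivin) and Cdca8 (borealin) place the kinase Aurkb on centromeres, had the lowest median of the groups with more than 1 gene. Its 4 members had log2 fold changes from -0.74 to -0.34, with a median of -0.50, and none passed the adjusted threshold. Incenp measured 11.9, 18.3 and 11.5 RPKM in Ctrl and 7.70, 6.28 and 9.64 RPKM in NICeCA TECs, with no overlap (log2 fold change -0.74, SE 0.21, adjusted p = 0.0536). Aurkb measured 8.52, 15.4 and 10.7 RPKM in Ctrl and 8.65, 5.96 and 8.00 RPKM in NICeCA TECs. Ctrl replicate 1 lay just below NICeCA replicate 1, so the groups of Aurkb overlapped (log2 fold change -0.53, adjusted p = 0.125). Birc5 and Cdca8 were at -0.47 and -0.34.

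Prc1 bundles the midzone microtubules, Racgap1 and Ect2 activate RhoA at the cell equator, and Anln, an actin-binding scaffold, organises the contractile ring. None of the 6 spindle and cytokinesis genes passed the adjusted threshold. Anln measured 7.58, 12.1 and 9.50 RPKM in Ctrl and 5.54, 4.49 and 7.13 RPKM in NICeCA TECs, without overlap (log2 fold change -0.67, SE 0.20, adjusted p = 0.0593). Racgap1 was also without overlap, at 12.1, 18.2 and 13.6 RPKM against 11.5, 8.53 and 11.0 RPKM, although Ctrl replicate 1 and NICeCA replicate 1 were close (log2 fold change -0.45, adjusted p = 0.116). Prc1 measured 9.19, 12.5 and 9.09 RPKM in Ctrl and 7.03, 5.20 and 9.43 RPKM in NICeCA TECs, so that NICeCA replicate 3 lay above 2 of the Ctrl libraries. Ect2 and Prc1 had log2 fold changes of -0.49 and -0.47. Nusap1 and Hmmr, which bind spindle microtubules, were nearer 0 at -0.16 and -0.09.

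Ki-67 coats mitotic chromosomes, topoisomerase II alpha (Top2a) untangles them, and condensin, built from Smc2 and Smc4 with Ncapd2 and Ncapg among its other subunits, compacts them. Mki67 measured 22.2, 36.8 and 24.8 RPKM in Ctrl and 12.0, 12.9 and 18.2 RPKM in NICeCA TECs. No libraries overlapped between groups, and means of 27.9 ± 7.81 and 14.3 ± 3.35 RPKM (SD, n = 3) gave -0.90 as the log2 fold change (SE 0.22, adjusted p = 0.0409). Top2a, like Mki67 abundant in dividing cells, overlapped between groups at 17.0, 27.0 and 24.4 RPKM against 18.4, 14.3 and 21.6 RPKM. Its log2 fold change was -0.31, with an interval from -0.79 to 0.17 (adjusted p = 0.318).

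The condensin subunits were not alike in their differences. Ncapd2 measured 9.66, 15.6 and 10.4 RPKM in Ctrl and 6.52, 5.25 and 7.53 RPKM in NICeCA TECs, and it passed the test (log2 fold change -0.78, SE 0.20, adjusted p = 0.0433). Ncapg, its partner in condensin I, stood at 3.49, 4.46 and 3.99 RPKM against 3.10, 2.85 and 3.47 RPKM. Those groups were separated by a narrow margin, and the log2 fold change of -0.26 did not pass (adjusted p = 0.185). Smc4, at -0.18, and Smc2, at 0.01 with an interval from -0.29 to 0.31, are shared by both condensins and did not pass. Scarna10, a small RNA gene of 71 bases, lies within Ncapd2 on the same strand and went the other way, from a mean of 966 to 2263 RPKM (log2 fold change 1.24, adjusted p = 0.0464). Scarna10 held at least 4303 reads in a NICeCA library and Ncapd2 at most 1265, so the reads of the small RNA were not counted to Ncapd2 as a whole.

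Besides the 5 genes past the threshold, 3 members had an adjusted p between 0.05 and 0.06: Incenp, Cenpe and Anln. Which members passed depended on single libraries. Left out in turn, Ctrl replicates 1, 2 and 3 left 2, 0 and 3 members called, and NICeCA replicates 1, 2 and 3 left 0, 0 and 8. The 8 were the 5 genes with Incenp, Cenpe and Anln. Over all tested genes, 4.34%, 1.10% and 6.05% were lower past the threshold without Ctrl replicates 1, 2 and 3. Those shares were 0.113%, 0.0081% and 6.75% without NICeCA replicates 1, 2 and 3. Without NICeCA replicate 1 or 2, few genes of the whole table passed, with 14 and 1 lower genes in place of 946.

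**Figure D3:**
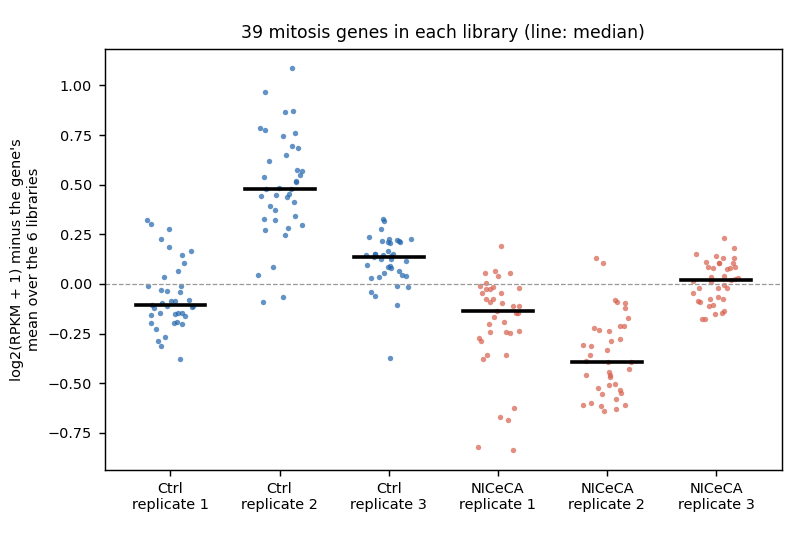
Each point is 1 of the 39 genes, plotted as its log2(RPKM + 1) in a library minus its mean over the 6 libraries (vertical axis), for each library on the horizontal axis. The black line is the median, which is 0.48 in Ctrl replicate 2, -0.39 in NICeCA replicate 2, and between -0.14 and 0.14 in the other libraries.

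The 39 genes varied together between mice of the same group. Ctrl replicate 2 held the highest level of 35 members and the lowest of none, and NICeCA replicate 2 held the lowest level of 28. The median deviation of the members from their own mean was -0.10, 0.48 and 0.14 in the Ctrl libraries and -0.14, -0.39 and 0.02 in the NICeCA libraries on the log2 scale. Over all tested genes the same medians stayed between -0.05 and 0.08. Ctrl replicate 1 stood between NICeCA libraries: 34 of 39 members were higher in it than in NICeCA replicate 2, 20 were higher in it than in NICeCA replicate 1, and 28 were higher in NICeCA replicate 3 than in it. In 29 members Ctrl replicate 1 lay below at least 1 NICeCA library.

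The members without Ctrl replicate 2 were closer to the background. The log2 fold change was then below 0 for 29 of 39 (74.4%), where 56.8% of all tested genes were below 0. The median was -0.18 in place of -0.31. Foxm1 and Cenpf were then at -0.78, Mki67 at -0.69, Cdc25b at -0.64 and Ncapd2 at -0.58, with adjusted p from 0.0761 to 0.0855. Cdk1, Ccnb1, Aurka, Cenpa, Ndc80, Nuf2 and Hmmr, all below 0 with this library, were above 0 without it, at most 0.12.

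Different orders of libraries were present among the members. In 28 of them NICeCA replicate 2 was lowest. In Foxm1, Cenpf, Cenpe, Mki67, Cdc25b and Smc4 NICeCA replicate 1 was lowest instead, and 4 of the 5 genes past the threshold were among these 6. In Cdk1, Cenpa, Bub3 and Smc2 Ctrl replicate 1 was lowest, and in Pttg1 Ctrl replicate 3. Within Ctrl, the highest library was 1.02 times the lowest for Bub3 and 2.10 times for Ttk, with a median of 1.62 times over the 39 genes. Within NICeCA, this ratio ran from 1.08 for Cdk1 to 2.01 for Cenpf, with a median of 1.45.

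**Figure D4:**
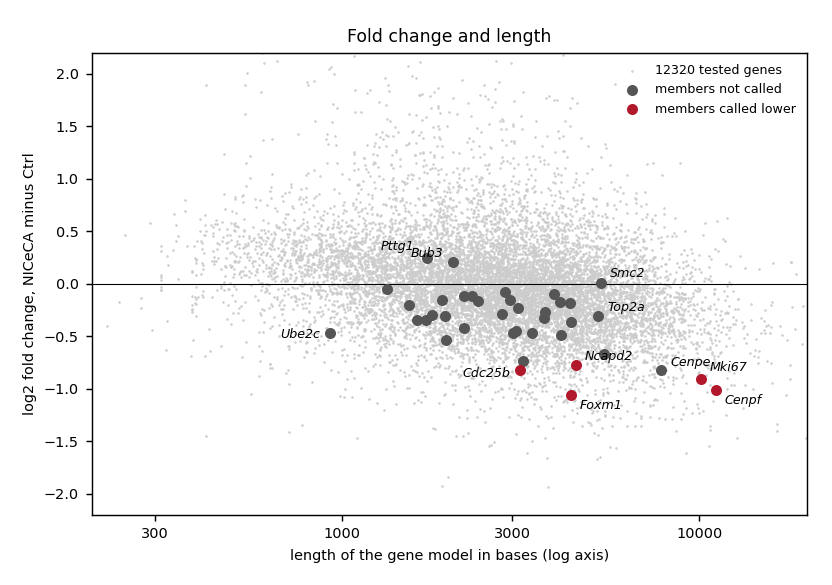
Log2 fold change (NICeCA minus Ctrl, vertical axis) against the length of the gene model in bases (horizontal log axis) for the tested genes in grey, the members called lower in red and the other members in dark grey, with some members named. The longest members reach down to -1.01 at Cenpf, and 325 tested genes lie outside the axes.

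Most members past the threshold had long gene models. Over all 12320 tested genes the median log2 fold change was 0.09 in the shortest genes of 3 equal classes by length (up to 2003 bases), -0.05 in the middle (up to 3623 bases) and -0.19 in the longest, and 2.58%, 5.77% and 14.7% of them were lower past the threshold. The members' medians were -0.30, -0.26 and -0.36 over 10, 14 and 15 genes, with 0, 1 and 4 lower past the threshold. Mki67 at 10075 bases and Cenpf at 11122 bases were the longest members. Across the 39 genes, which are not independent replicates and share their libraries, the correlation of log2 fold change with log2 length was -0.52 (Pearson) and -0.44 (Spearman), and over all tested genes it was -0.29 (Spearman). With each library's trend on length removed, 35 members were still below 0 with a median of -0.27, and none passed. Foxm1 then stood at -0.92, Cdc25b at -0.74, Ncapd2 at -0.63, Cenpf at -0.62 and Mki67 at -0.54.

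Levels of cell type markers differed between the libraries along with those of the mitosis genes. All 20 endothelial markers passed the filter on low values. The summed level of 20 endothelial markers was 1107, 446 and 585 RPKM in Ctrl and 937, 1177 and 1106 RPKM in NICeCA TECs. Ctrl replicate 2, highest for the mitosis genes, was thus lowest for endothelial genes. NICeCA replicate 2, lowest in 28 of the members, had the highest endothelial sum. All 20 markers had a log2 fold change above 0 with a median of 0.66 (0.39 without Ctrl replicate 2), and Flt1, Vwf and Cd93 passed the test. The summed level of 10 fibroblast markers was 411, 671 and 475 RPKM in Ctrl and 250, 198 and 385 RPKM in NICeCA TECs. Col3a1 alone made up most of each sum. Within each group the order of libraries by this sum was that of the median deviation of the 39 members. Mki67 had that order within Ctrl but not within NICeCA. Of the 9 fibroblast markers tested, 6 were below 0 and 3 above, with Col1a1 (0.10) and Col1a2 (0.55) among the latter. Col3a1, Pdgfra, Lum and Dpt were lower and Postn higher past the threshold. With the endothelial level as a covariate, 22 of 39 members were below 0, their median was -0.04 and none passed, but no gene of the table passed either (1006 genes were lower and 1194 higher at an unadjusted p under 0.05).

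Other cell types were present as well. Of 12 epithelial or carcinoma markers 2 were tested, and their sums were 7.19 to 13.3 RPKM in Ctrl and 6.87 to 9.02 RPKM in NICeCA TECs. Krt18 alone among them was lower past the threshold, at a mean of 4.19 against 1.71 RPKM, and the level of these markers in the LLC cells themselves was not measured in these libraries. Macrophage markers summed to 2734 to 3882 RPKM in Ctrl and 1758 to 3698 RPKM in NICeCA TECs, mostly from C1qa, C1qb and C1qc. Of the 10 macrophage markers, 5 were below 0 and 5 above. Cd68 alone among them passed the threshold, and it was higher in NICeCA TECs (log2 fold change 0.75). Neutrophil markers summed to 196 to 351 RPKM in Ctrl and 784 to 1883 RPKM in NICeCA TECs, with 8 of the 9 tested higher past the threshold. Pericyte markers summed to 33.6 to 47.9 RPKM in Ctrl and 64.2 to 119 RPKM in NICeCA TECs, with Rgs5 and Kcnj8 higher past the threshold. The summed ranges in Ctrl and NICeCA TECs were 56.4 to 90.9 and 64.8 to 79.8 RPKM for T and NK cell markers, 3.42 to 15.3 and 7.70 to 19.4 RPKM for B cell markers, 11.0 to 19.7 and 4.09 to 15.9 RPKM for erythroid markers, and 670 to 1009 and 927 to 1259 RPKM for general leukocyte markers. No marker of any list was at 0 in all libraries. The part of these cell types in the differences of the 39 genes was not tested.

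Other genes of mitosis, from a list of 85 of which 84 were tested, gave a similar summary. Of these, 78 were below 0 with a median of -0.36 (-0.22 without Ctrl replicate 2). The 7 that were lower past the threshold are 8.33% of them, near the 7.68% of all tested genes, and 0 were higher. None of them passed without Ctrl replicate 2 or without NICeCA replicate 1 or 2. Aspm, which holds spindle poles together, fell from a mean of 6.81 to 3.19 RPKM (log2 fold change -0.91), and Espl1, the protease separase, from 5.63 to 2.71 RPKM (-0.81). Pkmyt1 and Wee1, the kinases that keep Cdk1 inactive and so oppose the Cdc25 phosphatases, fell by 0.83 and 0.75 on the log2 scale. Wee1 was at 12.1, 10.4 and 7.62 RPKM in Ctrl and 6.24, 5.11 and 5.16 RPKM in NICeCA TECs, and its highest library was Ctrl replicate 1 and not Ctrl replicate 2. Numa1, a spindle pole protein that is also made outside mitosis, was at 36.6, 35.6 and 30.7 RPKM in Ctrl and 19.3, 17.9 and 23.0 RPKM in NICeCA TECs, again without Ctrl replicate 2 as the highest.

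The neighbouring steps of the cycle gave smaller medians. Over all tested genes 55.3% were below 0. The 16 APC/C subunits and partners, which Cdc20 and Ube2c serve, had 9 members below 0 and a median of -0.03 (0.0464 without Ctrl replicate 2), with none past the threshold, and the lowest adjusted p was that of Anapc2 (log2 fold change -0.31, adjusted p = 0.121). Of 61 genes of G1/S and DNA replication, 47 (77.0%) were below 0 with a median of -0.23 (-0.11 without Ctrl replicate 2) and none passed. The lowest adjusted p among them was that of Pold1, the catalytic subunit of DNA polymerase delta (log2 fold change -0.67, adjusted p = 0.0517). The list of MuvB, DREAM and B-MYB genes held 16 genes: subunits of MuvB, DREAM and NF-Y, with Mybl2 (B-MYB) and Rb1. Of these, 10 were below 0 with a median of -0.16, and none passed. Tfdp2 had the lowest adjusted p (log2 fold change -0.49, adjusted p = 0.0523). Mybl2 had the most negative log2 fold change of the list (-0.96, adjusted p = 0.0711). It stood at 4.87, 11.2 and 5.19 RPKM in Ctrl and at 2.13, 2.64 and 4.27 RPKM in NICeCA TECs.

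Positions of the 39 genes lay on 15 chromosomes, with 7 on chromosome 2, and all 39 rows overlapped the place of their gene in the GRCm38 annotation. Mki67 spans chr7:135689788-135716379 and Cenpf chr1:189640614-189688086 on the minus strand, Foxm1 chr6:128362994-128375886 and Cdc25b chr2:131186948-131198511 on the plus strand, and Ncapd2 chr6:125168007-125191586 on the minus strand. The labels and methods do not say whether reads were counted by strand. Cdc20, Ccna2, Nusap1 and Ncapg overlap Elovl1, Exosc9, Oip5 and Lcorl on the other strand, and none of these 8 genes passed the test.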

How the data were processed

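TECs from LLC tumors were profiled by bulk RNA-seq of ribosomal RNA-depleted libraries, 1 library from each of 3 Ctrl and 3 NICeCA mice, assigned by the sample titles. The authors deposited RPKM values per gene model. The submitters' processing notes name TopHat2 and mm9, whereas the deposited positions match GRCm38. How reads were counted, and whether by strand, is not given. The labels speak of tumors dissected on different days without saying which tumor belongs to which day, so no batch could be tested.

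Of 56826 gene models, the 23473 RefSeq models were used and the 33353 FANTOM3 models were left out of the comparisons. The deposited RPKM values were multiplied by gene length and divided by a step fitted in each library from the same values, taken as 1 read. This gave whole reads (within 0.05 reads) for 100% of the values under 1000 reads, and the step gave the depth. RefSeq models with a mean of at least 1 RPKM were compared on log2(RPKM + 1) by linear models (R 4.3.3 and its package limma 3.58.1, moderated with a trend on mean level), two-sided, with Benjamini-Hochberg adjustment over all 12320 genes and a threshold of 0.05. Fold changes of low genes are understated on this scale. The procedure was tested on simulated data in which genes varied independently, so the simulation does not cover libraries that shift many genes together. An exact permutation test of a single gene with 3 against 3 libraries cannot go below p = 0.1 and was not used.

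The 39 members, the other gene lists and the markers were chosen with earlier results of these data known, so counts and medians over them are descriptions without a test. Per-library values are given for members whose groups did not overlap, for members past the threshold and for lead genes of each role, and for other lists up to 5 genes past the threshold or, with none, the gene with the lowest adjusted p. Notch1, Hey1, Nrarp and Hes1 were added as a check of the transgene. Mybl2 was added because it encodes B-MYB. The 16 alternatives were a block for the replicate number, fits without each library, a pseudocount of 0.1, no filter, a filter at 5 RPKM, trimmed mean scaling, quantile normalization, no trend, voom on the recovered read counts, removal of each library's trend on length (lowess, span 0.3) and the endothelial marker level as a covariate. Promoter windows came from RefSeq (GRCm38.p6).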

Additional observations from a re-analysis of the deposited data

How the results depend on the processing

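With 3 mice in a group, single libraries decided which genes passed. Leaving out 1 library at a time, members called lower ranged from 0 to 8, all genes called lower from 1 to 832, all genes called higher from 17 to 911, other mitosis genes called from 0 to 9, G1/S and replication genes from 0 to 2, and MuvB, DREAM and B-MYB genes from 0 to 1. The number of members called lower was 0 with the replicate block, with no filter, with quantile normalization, with the length trend removed and with the endothelial covariate, 3 with trimmed mean scaling and 8 with voom. Of all tested genes, 5.81% were lower past the threshold with trimmed mean scaling and 10.9% with voom. All genes called lower numbered 209 with the replicate block, 105 with no filter, 579 at a mean of at least 5 RPKM, 325 with quantile normalization, 206 with the length trend removed and 0 with the endothelial covariate, and those called higher 327 with the replicate block, 260 with no filter, 446 with quantile normalization and 0 with the covariate. The share of higher genes among those called was 43.4%, and 58.1% with trimmed mean scaling, 57.8% with quantile normalization, 74.1% with the length trend removed, 71.2% with no filter, 61.0% with the block and 33.8% with voom. Other mitosis genes called lower numbered 1 with the replicate block, 1 with no filter, 4 at a mean of at least 5 RPKM, 4 with trimmed mean scaling, 1 with quantile normalization, 11 with voom, 0 with the length trend removed and 0 with the covariate. G1/S and replication genes called lower numbered 1 at a mean of at least 5 RPKM, 1 without the trend and 2 with voom, and MuvB, DREAM and B-MYB genes 1 with voom.

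The median log2 fold change of the members lay between -0.46 and -0.18 with 1 library left out, and was -0.0417 with the endothelial covariate. That covariate gave medians of -0.12 for other mitosis genes, 0.11 for APC/C subunits and 0.0186 for G1/S and replication genes. The median of the MuvB, DREAM and B-MYB genes was -0.0125 with quantile normalization and -0.0505 with the length trend removed. Signs turned, without any of these genes passing the test, with the endothelial covariate for Top2a (0.0517), Cdk1 (0.16), Ccna2 (0.054), Ccnb1 (0.22), Ccnb2 (0.13), Cdc20 (0.0373), Aurka (0.12), Bub1 (0.14), Ttk (0.0564), Cenpa (0.32), Ndc80 (0.0868), Nuf2 (0.25), Nusap1 (0.0703) and Hmmr (0.14), with quantile normalization for Cdk1 (0.013), Ndc80 (0.0223) and Hmmr (0.0667), with trimmed mean scaling for Cenpa (0.00202), with the length trend removed for Hmmr (0.0264), and with voom for Smc2 (-0.0176). Under leave-one-out, log2 fold changes ran from -0.20 to 0.0414 for Cdk1, -0.29 to 0.0372 for Ccnb1, -0.27 to 0.0249 for Aurka, -0.25 to 0.12 for Cenpa, -0.20 to 0.0193 for Ndc80, -0.37 to 0.0289 for Nuf2, -0.19 to 0.0314 for Hmmr and -0.0813 to 0.0782 for Smc2. The causes of these changes were not tested. The paper's methods name 3 pairs of NICeCA and control mice, and no label says which libraries form a pair. The main fit held no pairing. Deviations from the group mean correlated at 0.12, -0.34 and -0.18 for replicates 1, 2 and 3. The highest correlation was 0.44, between Ctrl replicate 2 and NICeCA replicate 3. Such deviations sum to 0 within a group, so these values cannot tell whether mice were paired. The block on replicate number took the members called from 5 to 0. Each member had at least 79 reads in each library.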

Other observations

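FANTOM3 gene models that lie within the span of members on the same strand were left out of the comparisons. A model and its member can count the same reads, so their values need not be independent. How many reads they shared was not tested. A model of 1113 bases at chr7:135695555-135696667, within Mki67, stood at 20.6, 36.7 and 26.6 RPKM in Ctrl TECs, against 10.7, 13.1 and 18.3 RPKM in NICeCA TECs. Its log2 fold change was -0.94, beside -0.90 for Mki67 with its 10075 bases, and the libraries kept the same order. This model held 433 to 1628 reads, and Mki67 held 4411 to 14778. A model of 3640 bases within Prc1 had a log2 fold change of -0.71, beside -0.47 for Prc1, and unlike Prc1 its groups did not overlap. Models within Racgap1 and Ncapg were at -0.45 and -0.30, beside -0.45 and -0.26. Models within Birc5 and Nusap1 were at -0.29 and -0.29, beside -0.47 and -0.16, and 2 models within Cenpa at -0.12 and 0.017, beside -0.05. The Cenpa model of 1030 bases held 579 to 1014 reads, beside 567 to 1008 for Cenpa itself. A model of 1684 bases within Cdc25c stood at 24.7 to 33.5 RPKM in Ctrl and 31.8 to 34.0 RPKM in NICeCA TECs, above the level of Cdc25c in each library. It held 1626 to 2246 reads, where Cdc25c held 79 to 200, so most of its reads were not counted to Cdc25c. It had a log2 fold change of 0.14 beside -0.30.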
